A study of Homo sapiens with 6 samples.

Results

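The activins, growth differentiation factor 15 (GDF15) and the follistatins form a small signalling system within the TGF-beta superfamily, and 10 of its genes were followed here among the 63241 genes counted in each library. They are the activin subunit genes INHBE, INHBA and INHBB, the ligand gene GDF15, the antagonist genes FST and FSTL3, the type I receptor genes ACVR1 and ACVR1B, and the type II receptor genes ACVR2A and ACVR2B. All 10 were found by symbol, and 9 of them passed the filter on low counts, with INHBA below it. They were chosen by family and with their NCD to DMSO fold changes in these same libraries known, so their differences between the groups are given as a description, with no p-value. All libraries came from 1 cell line, MDA-MB-231, which derives from a triple-negative breast cancer and is labelled wild type. The cells received 5 μM Nitidine Chloride (NCD), a natural alkaloid, or 0.1% DMSO as the vehicle, both for 24 h. There were 3 libraries per group, and the question of the comparison was what NCD changes in the transcriptome of these tumor cells. The labels do not say whether the libraries of a group came from separate cultures, so p-values measure only the spread between these samples, which may be technical.

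Activins are pairs of inhibin beta subunits that bind a type II receptor on the cell surface. The type II receptor then phosphorylates a type I receptor, which passes the signal to SMAD2 and SMAD3. Follistatin (FST) and its relative FSTL3 are secreted proteins that wrap around activins A and B and keep them from their receptors. GDF15 is a distant relative that cells under stress release, and it signals through GFRAL and its partner RET, a receptor pair known mainly from the hindbrain. INHBE, the subunit of activin E, is best known from the liver.

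Library totals were 18223594 to 19410833 counts in the DMSO group and 18232169 to 21629653 in the NCD group. Vimentin (VIM), a mesenchymal marker of this line, lay at 3056 ± 100.1 CPM (counts per 1000000 counts of TMM-scaled library size, SD, n = 3) with DMSO. ESR1 had at most 7 counts, PGR at most 3 and CDH1 at most 4 in any library, while ERBB2 was detected at 37.2 ± 1.76 CPM (SD, n = 3) with DMSO. PTPRC, a leukocyte marker, had at most 1 count, and PECAM1, an endothelial marker, had from 8 to 21. In bulk RNA, more transcript per cell cannot be told apart from more cells that carry it.

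INHBE, GDF15 and FST stood far higher after NCD, FSTL3 about 2.01-fold higher, and ACVR1 lower. Genes are called here when edgeR's quasi-likelihood test over all 15295 tested genes gave a Benjamini-Hochberg adjusted p under 0.05 and the log2 fold change passed 1 in size. By this rule 5 of the 9 tested genes were called, against 31.0% of all tested genes. Of these, 4 (INHBE, GDF15, FST and FSTL3) were called higher with NCD, as 13.5% of all tested genes were, and 1 (ACVR1) was called lower, as 17.5% were. Without the fold threshold 6 genes were higher, against 35.3% of all genes, and 1 was lower, against 34.1%. The NCD libraries all lay above the DMSO libraries for 6 genes, as for 37.2% of all tested genes, and below them for 1, as for 35.3%. The groups overlapped for INHBA, INHBB and ACVR2A, whereas 72.6% of all tested genes had groups apart. Since the contrast itself went into the choice of genes, nothing is read from these shares. Scaled by library totals, 2793 of all tested genes were called higher and 2181 lower, in place of 2067 and 2669. INHBE, GDF15 and INHBB passed the filter on low counts only through the NCD libraries. The genes nearest the fold threshold were FSTL3 inside it at a log2 fold change of 1.01 and ACVR2B outside it at 0.96.

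**Figure D1:**
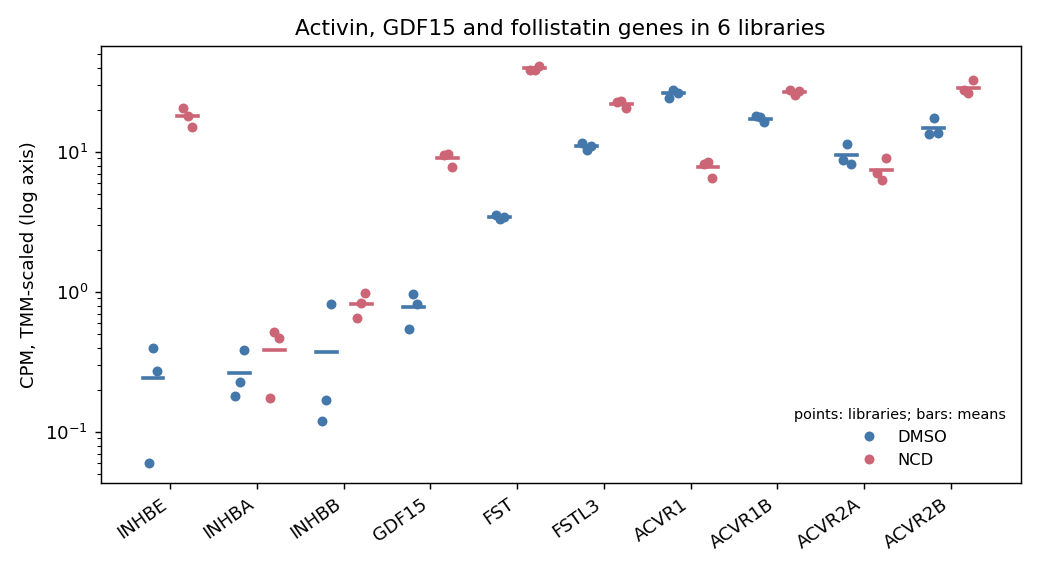
CPM of the 10 genes on a log axis, with DMSO libraries in blue and NCD libraries in red. Points are the 3 libraries of a group and bars their means. INHBE moves from a mean of 0.243 to 17.9 CPM, FST from 3.45 to 39.6 CPM, and ACVR1 from 26.2 to 7.76 CPM, while INHBA, INHBB and ACVR2A overlap between the groups.

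Promoter sequence was available for 9 of the 10 genes, with no entry for INHBE. The 250 bases before the RefSeq start (GRCh38.p14, printed on the gene's own strand, 5′ to 3′) are shown for GDF15 and FST, which had the largest rises among these 9, for FSTL3, the other antagonist, and for ACVR1, the gene with the largest fall. Capitals mark matches on either strand to the AP-1 motif TGANTCA, the box CCAAT and the TATA box motif TATAAA. They lie at chr19:18385908-18386157 (GDF15, plus strand), chr5:53480379-53480628 (FST, plus strand), chr19:676142-676391 (FSTL3, plus strand) and chr2:157876331-157876580 (ACVR1, minus strand, the outermost of its 3 starts).
GDF15: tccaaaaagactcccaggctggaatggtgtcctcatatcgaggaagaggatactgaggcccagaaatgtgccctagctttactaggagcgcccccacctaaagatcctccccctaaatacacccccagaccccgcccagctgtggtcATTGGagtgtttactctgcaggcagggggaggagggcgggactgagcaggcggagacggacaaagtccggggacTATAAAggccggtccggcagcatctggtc
FST: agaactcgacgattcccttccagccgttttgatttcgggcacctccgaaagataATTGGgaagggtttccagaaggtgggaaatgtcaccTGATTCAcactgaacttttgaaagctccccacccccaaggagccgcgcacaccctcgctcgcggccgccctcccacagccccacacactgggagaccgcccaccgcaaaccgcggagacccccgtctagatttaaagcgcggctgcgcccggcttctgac
FSTL3: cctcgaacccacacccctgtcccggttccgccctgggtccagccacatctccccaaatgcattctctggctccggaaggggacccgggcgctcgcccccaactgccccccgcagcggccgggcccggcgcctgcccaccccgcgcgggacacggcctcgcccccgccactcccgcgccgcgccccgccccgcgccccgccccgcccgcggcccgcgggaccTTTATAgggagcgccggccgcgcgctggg
ACVR1: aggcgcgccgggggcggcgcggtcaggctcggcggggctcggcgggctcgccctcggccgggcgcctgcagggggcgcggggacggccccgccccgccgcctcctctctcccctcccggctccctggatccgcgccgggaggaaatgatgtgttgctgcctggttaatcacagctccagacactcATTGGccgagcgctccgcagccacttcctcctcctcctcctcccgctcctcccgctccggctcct
GDF15 and FSTL3 both had the letters of a TATA box between 29 and 24 bases before the start, on the plus strand in GDF15 and on the minus strand in FSTL3. Of all 35116 promoter windows of this length, 10.7% held such a match. FST had an AP-1 match from 160 to 154 bases before its start, a motif found in 6.57% of windows. ACVR1 also had an AP-1 match, from 24 to 18 bases before another of its starts, which is not printed. GDF15, FST and ACVR1 each had a CCAAT box, as did 32.0% of windows. Among the 12 windows of the 9 genes, 5 held a CCAAT box and 3 the letters of a TATA box. GC boxes (GGGCGG, on either strand, left in lower case) were present in all 4 sequences and in 42.6% of windows. The core shared by ATF4 and C/EBP sites (TGATGNAA) and the CRE core (TGACGT) were in none of the 12 windows of the 9 genes, against 3.14% and 7.10% of all windows. The GC content of the windows ranged from 40.8% for ACVR2A to 89.6% for INHBB. In GENCODE release 29 the FST, FSTL3 and GDF15 windows overlap the annotated gene, so a start used in these cells may lie elsewhere.

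Among the ligands, INHBE (ENSG00000139269, chromosome 12, 57452323 to 57459280, plus strand, coordinates of GENCODE release 29 on GRCh38) moved most. Its expected counts were 1, 6.86 and 5 after DMSO, then 472, 350.2 and 324 after NCD. These were 0.0603, 0.396 and 0.274 CPM with DMSO and 20.6, 18.1 and 15.1 CPM with NCD. All NCD libraries were high and close to each other, whereas the DMSO libraries held almost no reads. Mean INHBE was 0.243 ± 0.170 CPM (SD, n = 3) in DMSO cells and 17.9 ± 2.76 CPM (SD, n = 3) in NCD cells. This 70.8-fold rise was 6.15 on the log2 scale (standard error 0.30), and 4 of the 15295 tested genes had a larger one. From the summed counts of 13 and 1146, the ratio of NCD to DMSO, scaled for library size, was 72.7 with an exact 95% interval of 42.3 to 137.0, which covers counting error alone. INHBC, its relative 1.49 kb upstream on the same strand, had at most 1 count in any library. No annotated gene overlapped INHBE, but its expected counts were not whole, so some reads may have been shared out with other genes by the authors' estimation.

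GDF15 (ENSG00000130513, chromosome 19, 18374731 to 18389176, plus strand) had 9, 17 and 15 counts in DMSO cells against 219, 186 and 168 in NCD cells. The lowest NCD library held 7.83 CPM and the highest DMSO library 0.962 CPM, so the groups stood far apart. Means were 0.775 ± 0.214 CPM (SD, n = 3) in DMSO cells and 9.01 ± 1.02 CPM (SD, n = 3) in NCD cells. On the log2 scale GDF15 was up by 3.52 (standard error 0.21), or 11.5-fold. The microRNA gene MIR3189 within it had 0 counts in every library.

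The other activin subunits were near the limit of detection. INHBA (ENSG00000122641, chromosome 7, 41667168 to 41705834, minus strand), the subunit of activin A, had 3, 4 and 7 counts in DMSO cells against 4, 10 and 10 in NCD cells. The groups overlapped, and the ratio of summed counts, scaled in the same way, was 1.41 with an exact 95% interval of 0.702 to 2.96. That interval covers counting error alone, and at this depth no change of INHBA was detectable. INHBB (ENSG00000163083, chromosome 2, 120346143 to 120351808, plus strand), the subunit of activin B, had 2, 3 and 15 counts in DMSO cells against 15, 16 and 21 in NCD cells. DMSO replicate 3 reached the level of the NCD libraries, at 0.822 CPM against 0.655 to 0.979 CPM. The log2 fold change was 1.10 (standard error 0.58), which was not called. Without that library it was 2.41 and was called. Leaving out any other single library gave 0.68 (DMSO replicate 1) to 1.22 (NCD replicate 1), and INHBB was not called in any of those fits.

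Taken per kb of exon (the union of all annotated exons of the gene), INHBE made up 25.2%, 61.6% and 23.1% of the signal of the 3 activin subunit genes in the DMSO libraries. In the NCD libraries its share was 96.8%, 94.9% and 93.3%. The DMSO shares rest on a few counts per library. The 2.59-fold rise in the mean share was 3.94-fold without DMSO replicate 2 and 2.19-fold without DMSO replicate 3.

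Both antagonists were higher with NCD, and FST moved further than FSTL3. FST (ENSG00000134363, chromosome 5, 53480409 to 53487134, plus strand) had 59, 59 and 63 counts in DMSO cells against 883, 751 and 886 in NCD cells. Replicates were tight, at 3.45 ± 0.109 CPM (SD, n = 3) in DMSO cells and 39.6 ± 1.50 CPM (SD, n = 3) in NCD cells, and the groups stood far apart. FST was up by 3.52 on the log2 scale (standard error 0.09), or 11.5-fold. FSTL3 (ENSG00000070404, chromosome 19, 676365 to 683399, plus strand) had 193, 184 and 200 counts in DMSO cells against 522, 447 and 440 in NCD cells. FSTL3 held 11.0 ± 0.611 CPM (SD, n = 3) in DMSO cells and 22.1 ± 1.43 CPM (SD, n = 3) in NCD cells, without overlap between the groups. Its log2 fold change was 1.01 (standard error 0.10), just past the fold threshold, and it fell to between 0.96 and 0.98 without DMSO replicate 2 or 3 or NCD replicate 1 or 2, which ended the call. With DESeq2, with ribosomal protein scaling and under the filter requiring 10 or more counts per library it was 0.99, also below the threshold.

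The balance of the pair turned over within each library, a comparison that does not depend on the scaling between libraries. Per kb of exon, FST stood at 0.316, 0.331 and 0.325 of FSTL3 in the DMSO libraries, and at 1.75, 1.74 and 2.08 times FSTL3 in the NCD libraries. FSTL3 was thus the more abundant antagonist transcript in every DMSO library and FST in every NCD library. The ratio of ligand to antagonist transcripts differed as well. The 3 activin subunits together amounted to 0.0159, 0.0462 and 0.0831 of the follistatin signal with DMSO and to 0.346, 0.307 and 0.261 with NCD. In every library the follistatin transcripts remained more abundant than the activin subunit transcripts. INHBE alone amounted to 0.00401, 0.0285 and 0.0192 of the follistatin signal with DMSO and to 0.335, 0.291 and 0.243 with NCD. INHBE made up at least 93.3% of the subunit signal in each NCD library, while INHBA and INHBB overlapped between the groups. The higher ratio is therefore that of INHBE, and it does not describe activins A and B, the ligands named above as bound by follistatins. Whether follistatins bind the product of INHBE was not tested. The mean ratio of the 3 subunits together was 6.29-fold higher with NCD, and 9.80-fold higher without DMSO replicate 3.

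**Figure D2:**
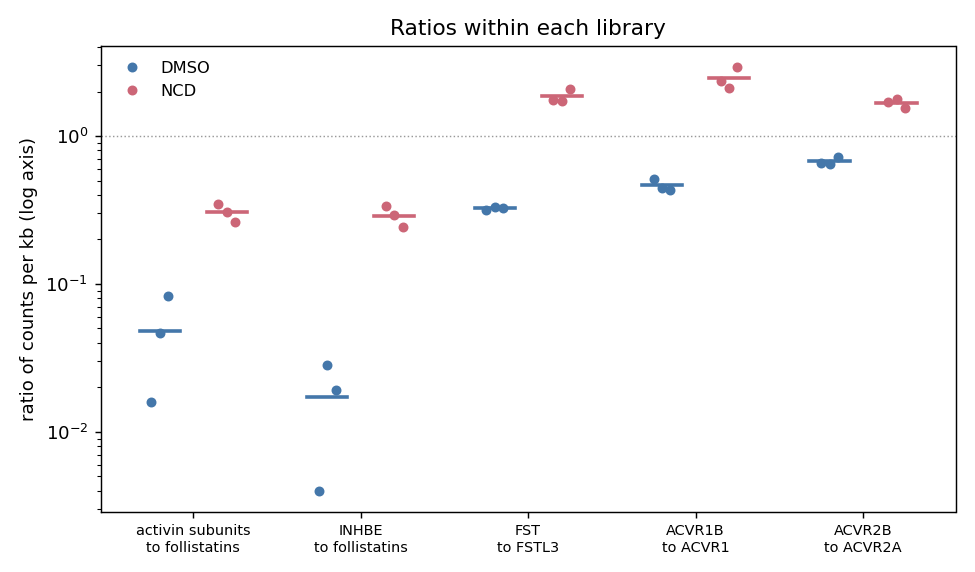
Ratios of counts per kb of exon within each library, on a log axis, with DMSO in blue and NCD in red. Points are libraries, bars are means of 3, and the dotted line marks equal signal. FST to FSTL3, ACVR1B to ACVR1 and ACVR2B to ACVR2A lie below 1 in all DMSO libraries and above 1 in all NCD libraries, and both ratios to the follistatins stay below 1.

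Of the type I receptor genes, ACVR1 was lower with NCD and ACVR1B was higher. ACVR1 (ENSG00000115170, chromosome 2, 157736444 to 157875862, minus strand), which encodes ALK2 and mainly serves bone morphogenetic proteins, had 406, 492 and 480 counts in DMSO cells against 188, 164 and 141 in NCD cells. ACVR1 stood at 26.2 ± 1.69 CPM (SD, n = 3) in DMSO cells and 7.76 ± 1.03 CPM (SD, n = 3) in NCD cells, with every NCD library below every DMSO library. Its log2 fold change was -1.76 (standard error 0.12), the largest fall among the 9 tested genes. ACVR1B (ENSG00000135503, chromosome 12, 51951667 to 51997078, plus strand), which encodes the activin receptor ALK4, had 298, 313 and 297 counts in DMSO cells against 635, 496 and 588 in NCD cells. Its level was 17.3 ± 0.906 CPM (SD, n = 3) in DMSO cells and 26.9 ± 1.12 CPM (SD, n = 3) in NCD cells, with no overlap. The log2 fold change of 0.64 (standard error 0.08) stayed below the fold threshold. Per kb of exon, ACVR1B stood at 0.515, 0.446 and 0.434 of ACVR1 with DMSO and at 2.37, 2.12 and 2.92 times ACVR1 with NCD.

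Of the type II receptor genes, ACVR2B was the more abundant per kb of exon after NCD and ACVR2A in control cells. ACVR2B (ENSG00000114739, chromosome 3, 38453851 to 38493142, plus strand) had 222, 307 and 251 counts in DMSO cells against 632, 507 and 699 in NCD cells. ACVR2B stood at 14.8 ± 2.20 CPM (SD, n = 3) in DMSO cells and 28.8 ± 3.34 CPM (SD, n = 3) in NCD cells, and the groups were apart. The log2 fold change of 0.96 (standard error 0.13) was not called, and it reached 1.08 and 1.02, and was called, without DMSO replicate 2 or NCD replicate 2. The antisense gene ACVR2B-AS1 had at most 14 counts in any library. ACVR2A (ENSG00000121989, chromosome 2, 147844517 to 147930826, plus strand) had 146.1, 203 and 151 expected counts in DMSO cells against 161, 122 and 194 in NCD cells. Its groups overlapped, at 9.52 ± 1.72 CPM (SD, n = 3) and 7.46 ± 1.42 CPM (SD, n = 3), and the log2 fold change of -0.35 (standard error 0.18) was not called. ACVR2A overlaps ORC4 on the opposite strand, which had from 553 to 983 counts. The strandedness of the counting is not given in the sources used here, so reads of the 2 genes may not be told apart. Per kb of exon, ACVR2B stood at 0.654, 0.649 and 0.716 of ACVR2A with DMSO and at 1.69, 1.79 and 1.55 times ACVR2A with NCD. In counts, ACVR2B exceeded ACVR2A in every library. Its place below ACVR2A in control cells rests on the exon unions, 15744 bases for ACVR2B and 6770 for ACVR2A.

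Levels per kb of exon put ACVR1 on top in DMSO cells and FST, FSTL3 and INHBE on top in NCD cells. With DMSO the order was ACVR1 at 6.57 CPM per kb, FSTL3 at 3.59, ACVR1B at 3.04, ACVR2A at 1.41, FST at 1.16, ACVR2B at 0.942, GDF15 at 0.372, INHBB at 0.116, INHBE at 0.0808 and INHBA at 0.0318. Only INHBB with INHBE and INHBE with INHBA overlapped among neighbors in that order. With NCD the order was FST at 13.3 CPM per kb, FSTL3 at 7.22, INHBE at 5.95, ACVR1B at 4.73, GDF15 at 4.32, ACVR1 at 1.94, ACVR2B at 1.83, ACVR2A at 1.10, INHBB at 0.256 and INHBA at 0.0465. Here FSTL3 overlapped INHBE, ACVR1B overlapped GDF15 and ACVR1 overlapped ACVR2B. The exon union is 15744 bases for ACVR2B and 8302 for INHBA, and a shorter transcript in these cells would raise their level per kb.

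The genes differ in length, and the change with NCD over all genes varied with gene span. ACVR1 spans 139.4 kb, in the 9th decile of tested genes, whose median log2 fold change was -0.93 and of which 46.0% were called lower. ACVR2A, with 86.3 kb, was in the 8th decile, whose median log2 fold change, -0.35, was the same as its own. ACVR1B and ACVR2B span 45.4 and 39.3 kb, in deciles with median log2 fold changes of -0.03 and 0.11. INHBE, INHBB, FST and FSTL3 all lie in the 2nd decile (3.71 to 8.03 kb), with a median of 0.38 and 21.7% called higher, and GDF15 in the 4th, with 0.43 and 20.4%. INHBE, GDF15 and FST stood at least 3 log2 units above the median of genes of like span. They were chosen with their fold changes known, so nothing is read from this gap. The part of gene span in these results was not tested.

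**Figure D3:**
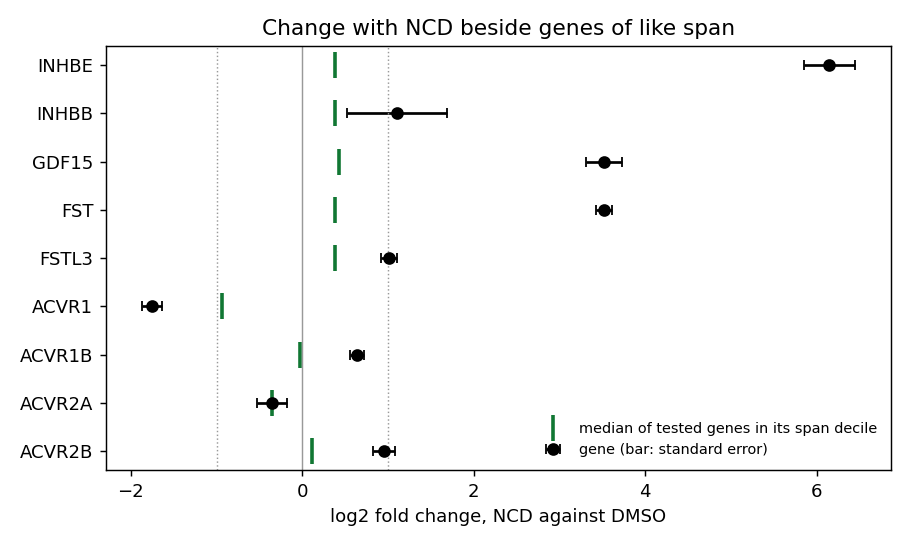
Log2 fold change of the 9 tested genes (black points, bars are standard errors) with the median of tested genes in the same decile of gene span (green ticks) and the fold threshold (dotted lines). INHBE at 6.15, GDF15 and FST at 3.52 lie far to the right of their ticks, ACVR1 at -1.76 lies left of its tick at -0.93, and ACVR2A lies on its tick.

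The surrounding pathway was described with 7 lists of 68 other genes, written with earlier results of these data known. Adjusted p-values of list genes are therefore given as a description only. Among 9 other activin-class ligands, 3 could be tested. GDF11, a close relative of myostatin, lay at 22.6 CPM with DMSO and 23.7 CPM with NCD, with a log2 fold change of 0.07 (standard error 0.09). GDF1 was called higher (0.249 CPM with DMSO, 0.679 CPM with NCD) and LEFTY1 lower (1.07 and 0.274 CPM). GDF1 had 4.89, 3.73 and 4.39 expected counts with DMSO, and LEFTY1 had 2, 7 and 8 with NCD. GDF1 passed the filter on low counts only through the NCD libraries, and LEFTY1 only through the DMSO libraries. Both were named after their values were seen, and LEFTY1 encodes an inhibitor of Nodal signalling, not an activating ligand. The median of the 3 was 0.07, against 0.04 for all tested genes, of which 13.5% were called higher and 17.5% lower. INHA, the inhibin alpha subunit, had at most 1 count per library. The receptors of GDF15 were all but absent, since GFRAL had 0 counts in every library, which allows up to 3 counts or 0.181 CPM in a library, and RET had at most 1 count.

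Among 9 other receptors and co-receptors, 4 were tested, with 1 called higher and 2 lower, beside 13.5% and 17.5% of all tested genes. The median log2 fold change was -0.96, against 0.04 for all tested genes. ACVR1C, named after its values were seen, was not called. It lay at 0.625 CPM with DMSO and 0.893 CPM with NCD, and the groups overlapped. TGFBR3 (betaglycan, a co-receptor through which inhibin blocks activin receptors) fell from 45.8 ± 4.12 to 4.71 ± 0.449 CPM (SD, n = 3 each), a log2 fold change of -3.28 (adjusted p = 3.48e-08, edgeR). BMPR2, a type II receptor of bone morphogenetic proteins, fell from 81.5 ± 12.4 to 15.2 ± 3.83 CPM (SD, n = 3 each), a log2 fold change of -2.42 (adjusted p = 2.62e-06, edgeR). TGFBR3 and BMPR2 span 226 and 191 kb, longer than any gene of the 9th decile by span, which ends at 153.1 kb. The part of gene span in their falls was not tested. TGFBR3L, a betaglycan relative, rose by a log2 fold change of 1.25 (adjusted p = 0.0205, edgeR) at 1.74 CPM with NCD. Of 10 further extracellular antagonists, 4 were tested and 1 was called higher, as 13.5% of all tested genes were. None was called lower, as 17.5% of all tested genes were, and the median log2 fold change was -0.22. Without the fold threshold 2 were higher and 1 lower, beside 35.3% and 34.1% of all tested genes. The lower gene was FSTL1, the most abundant of the 4, named after its values were seen. It lay at 323.9 CPM with DMSO and 184.3 CPM with NCD, without overlap, a log2 fold change of -0.81 (standard error 0.06). The called gene was BAMBI, a decoy receptor without a kinase, which rose from 3.84 ± 0.729 to 13.0 ± 0.649 CPM (SD, n = 3 each, log2 fold change 1.75, adjusted p = 6.21e-06, edgeR).

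Downstream, all 14 genes of the SMAD signalling list were tested, with 1 called higher, 4 lower and 9 not called, beside 13.5% and 17.5% of all tested genes called higher and lower, and a median log2 fold change of -0.50 against 0.04 for all tested genes. SMURF2, a ubiquitin ligase that targets SMADs and their receptors, fell by 2.85 on the log2 scale (adjusted p = 1.94e-08, edgeR). SMAD3 fell from 85.1 ± 9.04 to 28.3 ± 3.89 CPM (SD, n = 3 each), a log2 fold change of -1.59 (adjusted p = 2.71e-06, edgeR). SMAD2 had a log2 fold change of -0.92 (standard error 0.08) and SMAD4 of -0.14 (standard error 0.09), and neither was called. SMURF2 and SMAD3 span 119.8 and 131 kb, in the 9th decile of tested genes by span, of which 46.0% were called lower. The part of gene span in these changes was not tested. ZFYVE9, which brings SMAD2 and SMAD3 to the receptors, and PMEPA1, a feedback inhibitor, were called lower with log2 fold changes of -1.48 and -1.36. ZFYVE9 spans 204.6 kb, longer than any gene of the 9th decile, which ends at 153.1 kb. PMEPA1 spans 63.1 kb, in the 8th decile, of which 15.6% were called lower. For these 2 genes too, the part of gene span was not tested. The gene called higher was SKIL, a SMAD corepressor named here after its values were seen, with a log2 fold change of 1.07.

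Of 12 genes known as targets of SMAD2 and SMAD3, 11 were tested, with 2 called higher and 5 lower, beside 13.5% and 17.5% of all tested genes. The median log2 fold change was -0.54 against 0.04 for all tested genes. CCN2 and THBS1, both matricellular proteins, fell with log2 fold changes of -1.67 and -1.18. JUNB, a subunit of AP-1, rose from 8.58 ± 0.282 to 33.4 ± 3.46 CPM (SD, n = 3 each), a log2 fold change of 1.96 (adjusted p = 3.82e-07, edgeR). COL1A1, a fibrillar collagen named after its values were seen, was the other gene called higher, with a log2 fold change of 2.24. CCN2 and THBS1 span 3.20 and 18.4 kb, and JUNB and COL1A1 span 1.82 and 18.3 kb. THBS1 and COL1A1 lie in the 4th decile by span, with 20.4% called higher and 2.93% lower.

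The last list held 10 stress-responsive transcription regulators, among them known regulators of GDF15 or INHBE. All were tested, 8 were called higher and 2 were not called, beside 13.5% of all tested genes called higher, and the median log2 fold change was 1.53 against 0.04 for all tested genes. This list too was written with earlier results of these data known. NUPR1, called higher and named after its values were seen, had 9, 4 and 5.02 expected counts with DMSO. It passed the filter on low counts only through the NCD libraries. EGR1 rose from 1.83 ± 0.135 to 20.9 ± 0.307 CPM (SD, n = 3 each, log2 fold change 3.51, adjusted p = 3.03e-08, edgeR). ATF3 rose from 6.34 ± 0.805 to 58.5 ± 5.63 CPM (SD, n = 3 each, log2 fold change 3.21, adjusted p = 5.71e-08, edgeR). DDIT3, which encodes CHOP, rose with a log2 fold change of 2.20. ATF4, whose protein is mainly controlled at translation, had a log2 fold change of 0.61 (standard error 0.07) and NFE2L2 of -0.02 (standard error 0.10), and neither was called.

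**Figure D4:**
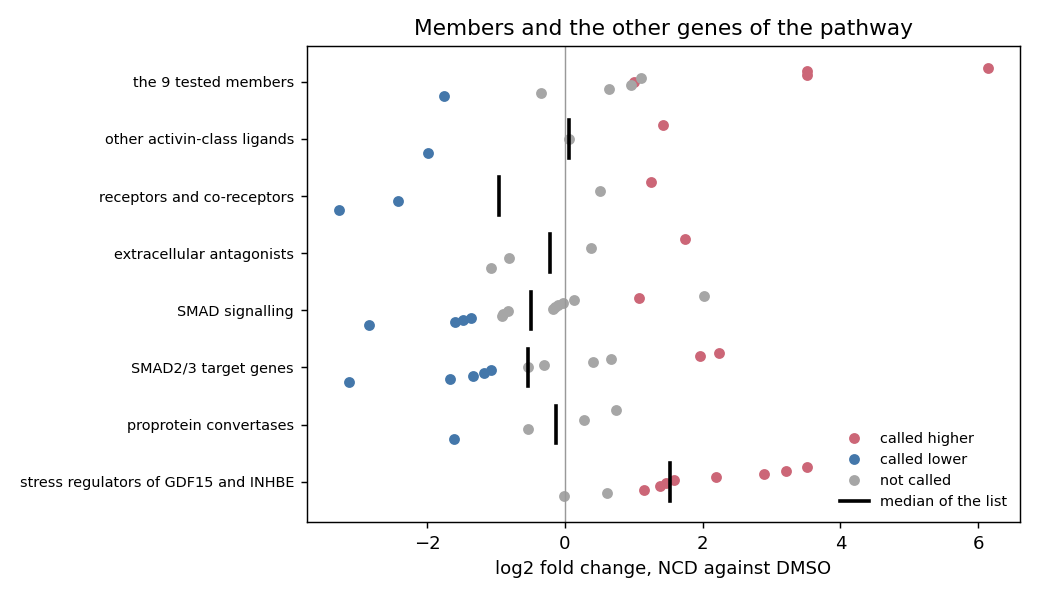
Log2 fold changes with NCD of the 9 tested genes of the activin, GDF15 and follistatin set and of the 50 tested genes of the 7 lists. Red points were called higher, blue lower and grey not called, and black lines are list medians, from -0.96 for other receptors and co-receptors to 1.53 for the stress regulators.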

How the data were processed

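Total RNA of MDA-MB-231 cells was sequenced in 3 DMSO and 3 NCD libraries. The authors aligned reads with HiSat2 and deposited expected counts per Ensembl gene estimated by RSEM, without normalization and library by library. GRCh38 is named in the submitters' processing notes, and the annotation release is not given in the sources used here. The free-text notes of NCD replicates 2 and 3 name other cell line numbers, and the cell line field (MDA-MB-231) was followed. In each file 25 lines of stray text without a gene were skipped. Symbols were matched for 62720 of 63241 identifiers, and gene models came from GENCODE release 29 (58228 identifiers).

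Expected counts were rounded and fitted with edgeR 4.0.16 in R 4.3.3 (filterByExpr, TMM factors from 0.911 to 1.09, glmQLFit, glmQLFTest, Benjamini-Hochberg adjustment over all tested genes). Standard errors are the absolute log2 fold change over the square root of F. The procedure was tested on simulated data. Members and lists were chosen with earlier results of these data known. Named list genes are at most 4 called genes per list by smallest p, with a mean of at least 1 CPM, besides genes that define a list's role, and 2 genes the rule names are not reported here. Alternatives were DESeq2 1.42.0, limma-voom (limma 3.58.1), other scalings and filters, dropping the fold threshold, edgeR with 2 as its prior count, a block on replicate number, and leave-one-out fits. The receptor ratios, the FST to FSTL3 ratio and the INHBE share were added after the data were seen. Python 3.11.15 with pandas 2.3.3, numpy 2.4.6 and matplotlib 3.10.9 made tables and figures, and scipy 1.17.1 the exact binomial intervals, which cover counting error only. No pair of libraries within a group was alike within sampling noise, since the smallest chi-square per degree of freedom was 2.06.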

Additional observations from a re-analysis of the deposited data

How the results depend on the processing

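Of 123 log2 fold changes of the 9 tested genes under the alternatives, none changed sign, 111 kept their side of the call threshold, 7 lost it and 5 gained it. All 7 losses were FSTL3, at 0.96 to 0.99, and the 5 gains were INHBB (1.48 with limma-voom and 2.41 without DMSO replicate 3) and ACVR2B (1.15 with library totals, 1.08 without DMSO replicate 2 and 1.02 without NCD replicate 2). Library totals in place of TMM moved the median over all tested genes up by 0.20 on the log2 scale and gave 2793 genes higher and 2181 lower, in place of 2067 and 2669.

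When every library had to hold 10 or more counts, 6 of the genes could be tested and 1 of them, FST, was called higher. That filter removed INHBE, GDF15 and INHBB, which had few counts with DMSO, while FSTL3 was tested and missed the fold threshold at 0.99. Of all genes, 1376 were then called higher. Without a fold threshold 5393 genes were higher and 5209 lower, and 20 genes of the lists were higher in place of 14 and 20 lower in place of 13, by construction. Leaving out each library in turn gave 3 to 4 members called higher and 1 called lower, 12 to 15 list genes higher and 13 to 14 lower, and 2014 to 2136 of all genes higher and 2608 to 3005 lower. The fold of the ratio of activin subunits to follistatins ranged from 4.71 to 9.80.

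Replicate numbers were not taken as pairs, since the deviations of same-numbered libraries correlated at 0.368, -0.332 and 0.015, and not every library correlated best with its own number. With the replicate number as a block, 4 members were called higher and 1 lower, and of all genes 2056 were higher and 2667 lower. Depth limits INHBA and INHBB, and INHBE and GDF15 with DMSO.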

Other observations

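Activin and GDF15 precursors are cut by proprotein convertases, of which 4 were listed and tested. By edgeR 1 was called lower, as 17.5% of all tested genes were, and 3 were not called. The median log2 fold change was -0.13, against 0.04 for all tested genes. FURIN, the most abundant of them, lay at 75.5 CPM in DMSO cells and 91.2 CPM in NCD cells (log2 fold change 0.27, standard error 0.07). The called gene was PCSK5, named after its values were seen, with 0.927 CPM in DMSO cells and 0.308 CPM in NCD cells. It had 3, 9 and 7.01 expected counts with NCD, and it passed the filter on low counts only through the DMSO libraries.

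Among tested genes whose mean reached 5 CPM, those whose profiles over the 6 libraries lay closest to INHBE, by the root mean square difference of log2(CPM + 0.5) centred on the DMSO mean, were OASL (0.152), SLC16A1 (0.476) and IFIT2 (0.50). OASL and IFIT2 are interferon-stimulated genes and SLC16A1 is a lactate transporter. Their log2 fold changes were 4.69, 4.89 and 4.07, all below the 6.15 of INHBE, and the added 0.5 CPM shrinks the difference of INHBE more than that of OASL or IFIT2. Closest to ACVR1 were R3HDM2 (0.0732), RNF216 (0.0820) and SLC23A2 (0.0827), with log2 fold changes of -1.76, -1.69 and -1.76.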
